A study of Mus musculus with 2 samples.

Results

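The core and linker histone genes of the mouse were compared between SoNar-high and SoNar-low blood cells of the fetal liver. Members were all genes whose symbol, or an older synonym of it, began with Hist1h, Hist2h, Hist3h, Hist4h, H2af, H3f or H1f. The gene table held 93 such genes, 8 of them pseudogenes, and the array carried a probe matched by accession for 62 of them, out of 20659 named genes on the array. The other 31 were not analysed here. Of the 62 genes with a probe, 47 were cluster genes (symbols starting Hist1h to Hist4h, the replication-dependent histones, with 70 in the table), and 15 were variant genes (H1f, H2af and H3f, with 23 in the table). Genes are called by the older names of the rule, with the current symbol in parentheses at first use where it differs.

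The protein SoNar reports the balance of NADH and NAD+ in living cells through its fluorescence, read as the ratio F405/F488. Blood cells of the E13.5 fetal liver were sorted by a high or a low ratio, and RNA from each sort was labelled with Cy3 and hybridised to a 1-colour Agilent array. The SoNar-high cells are labelled as strain C57BL/6 and the SoNar-low cells as C57BL. The allele that carries the sensor, the number of embryos pooled and the width of the gates are not given in the sources used here. There was 1 array per group, so no difference below has a replicate check or a test, and each describes these 2 arrays. In sorted populations of mixed cells, fewer cells of a type and less RNA per cell cannot be told apart.

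Histones H2A, H2B, H3 and H4 form the protein core of the nucleosome, and the linker histone H1 binds the DNA between nucleosomes. Most are made in S phase from intronless genes that lie in clusters, and the mRNAs of these genes typically end in a stem-loop bound by Slbp in place of a poly(A) tail. Variant histones such as H2A.Z, macroH2A and H3.3 are encoded by separate genes with polyadenylated mRNAs that are made throughout the cell cycle. Blood progenitors of the fetal liver divide rapidly, and erythroblasts condense their chromatin before they lose the nucleus. The labelling kit named in the labels primes cDNA synthesis at poly(A) tails, so a cluster gene's signal reflects the transcripts of it that this priming could reach, and their form was not tested. The copies of each cluster class are close in sequence, and probes of different copies may share targets. Each value is therefore that of the probe named for the gene, and levels of different genes were not compared.

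Promoters of members were read from RefSeq (assembly GRCm38.p6), which held 80 entries of 300 bases for 79 of the 93 genes. The stretches printed here are the 150 bases before the start of transcription of 7 genes. In 7 of the 8 classes they belong to the member with the largest difference between the arrays among measured genes that have an entry, and they are shown to set the promoter letters of the classes side by side. Hist1h1e (H1f4) lies at chr13:23622559-23622708, minus strand, and Hist3h2a (H2aw) at chr11:58954535-58954684, plus strand. Hist3h2ba (H2bu2) lies at chr11:58948761-58948910, plus strand, and Hist2h3b (H3c13) at chr3:96268504-96268653, plus strand. Hist1h4c (H4c3) lies at chr13:23698459-23698608, minus strand. H2afv (H2az2) lies at chr11:6444444-6444593, minus strand, and H3f3b at chr11:116024505-116024654, minus strand. Capitals mark the letters TATAAA, or else those of CCAAT, or else those of ATTTGCAT, on either strand, and each sequence is written 5' to 3' on the gene's strand.
Hist1h1e: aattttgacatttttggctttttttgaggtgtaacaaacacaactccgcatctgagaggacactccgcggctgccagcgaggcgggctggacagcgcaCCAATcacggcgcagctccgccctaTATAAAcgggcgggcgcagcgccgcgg
Hist3h2a: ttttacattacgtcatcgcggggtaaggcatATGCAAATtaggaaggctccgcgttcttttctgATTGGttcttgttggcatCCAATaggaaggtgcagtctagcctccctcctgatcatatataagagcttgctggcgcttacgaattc
Hist3h2ba: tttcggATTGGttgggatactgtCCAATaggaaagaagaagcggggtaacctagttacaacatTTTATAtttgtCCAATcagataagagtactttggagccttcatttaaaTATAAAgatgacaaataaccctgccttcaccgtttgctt
Hist2h3b: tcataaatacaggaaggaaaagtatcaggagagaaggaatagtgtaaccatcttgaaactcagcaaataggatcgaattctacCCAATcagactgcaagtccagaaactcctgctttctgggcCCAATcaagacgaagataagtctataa
Hist1h4c: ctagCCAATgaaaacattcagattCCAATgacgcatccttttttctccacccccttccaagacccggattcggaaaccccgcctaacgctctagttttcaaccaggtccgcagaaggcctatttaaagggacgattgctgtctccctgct
H2afv: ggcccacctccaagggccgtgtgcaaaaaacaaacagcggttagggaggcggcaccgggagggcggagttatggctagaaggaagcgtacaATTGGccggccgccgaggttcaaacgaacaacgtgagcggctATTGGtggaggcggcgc
H3f3b: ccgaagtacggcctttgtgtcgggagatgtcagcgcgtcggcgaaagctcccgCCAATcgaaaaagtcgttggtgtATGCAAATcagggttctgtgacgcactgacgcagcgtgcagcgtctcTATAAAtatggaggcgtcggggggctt

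TATAAA is the core of the TATA box, CCAAT the letters bound by NF-Y, and ATTTGCAT the octamer bound by Oct factors. Over the whole 300 bases and both strands, TATAAA was found in 35 of 63 promoters of cluster genes (55.6%), in 2 of 17 of variant genes and in 13.6% of all 32851 promoters in the table. CCAAT was found in all 6 promoters of H1, all 18 of H2A, all 17 of H2B and all 10 of H3 cluster genes, but in 3 of 12 of H4, against 37.4% of all promoters. ATTTGCAT was found in 7 of 18 H2A and 7 of 17 H2B promoters and in no H1, H3 or H4 cluster promoter, against 1.74% of all promoters. The 2 Hist3 genes printed above both carry CCAAT letters on each strand, and Hist3h2a also the octamer. H3f3b, a variant gene, holds all 3 sets of letters. Of 31 TATAAA matches on the gene strand of cluster members, 15 started 45 to 20 bases before the start of transcription. A match describes these letters in this window and is not evidence that a factor bound there.

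A probe counted as measured when it was well above background and unsaturated on both arrays, which held for 10223 named genes, or 49.5%. The signal well above background covered 49.4% of the spots of the SoNar-high and 42.4% of those of the SoNar-low array, and the lowest such signal was 30.2 and 37.1, respectively. Signals below are the scanner's processed intensities in arbitrary units, and the 75th percentile was 186.5 for SoNar-high and 222.2 for SoNar-low. Differences are SoNar-high minus SoNar-low on the log2 scale after each array's 75th percentile was subtracted, so equal signals give a difference of about 0.25 and a positive difference means higher in SoNar-high. All histone probes were printed on 1 spot per array. The spread of a difference between spots was 0.148 (SD, from 213 probes printed 10 times on each array), and the error derived from the scanner software's spot errors was 0.205 (median over the measured histone genes). Both cover the spot and not the cells.

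Most histone genes with a probe were measured. In SoNar-high, 47 of the 62 genes were well above background, against 57.4% of all named genes. In SoNar-low, 43 of 62 were, against 50.2% of all named genes. The same 43 were measured on both arrays, 33 cluster genes and 10 variant genes. By class these were 3 of 6 H1, 10 of 14 H2A, 6 of 11 H2B, 6 of 7 H3 and 8 of 9 H4 cluster genes with a probe. Of the variants, 1 of 4 H1, 7 of 9 H2A and both H3 genes were measured.

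**Figure D1:**
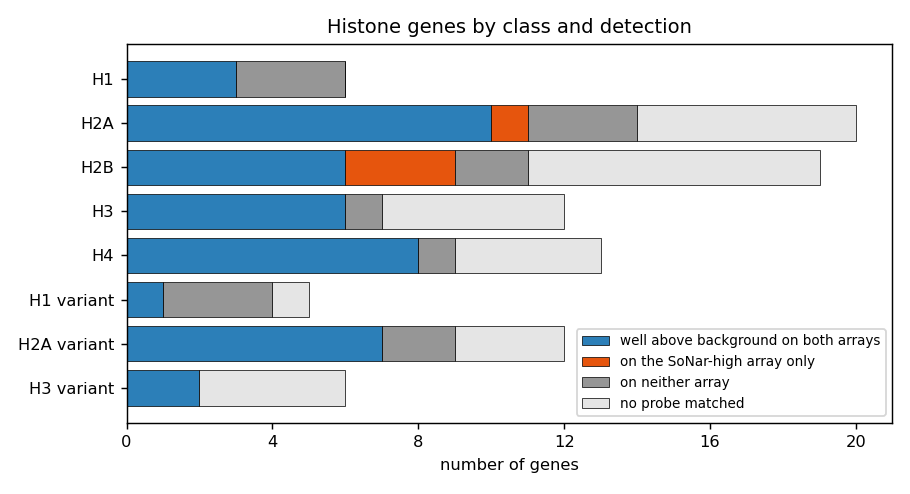
Number of histone genes in each class (x axis) that were measured on both arrays, above background on the SoNar-high array only, above background on neither, or without a matched probe. Of the cluster genes with a probe, those of H4 and H3 were measured most completely. No histone gene was above background on the SoNar-low array only. Of all named genes, fewer were above background on that array (50.2%) than on the SoNar-high array (57.4%).

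In all, 4 of the 62 histone genes with a probe were detected, that is well above background, in SoNar-high alone. Of all 20659 named genes, 1621 were. Hist2h2ab (H2ac21) had a signal of 33.0 (scanner error 6.94) in SoNar-high and 11.0 (8.35) in SoNar-low. The bound on its scaled ratio was 1.06, a margin smaller than the scanner error of its SoNar-high signal. Hist1h2bb (H2bc3) had 41.9 (scanner error 7.70) and 39.1 (10.9), a scaled ratio of 1.28. Hist1h2bp (H2bc22) had 43.6 (8.64) and 40.0 (9.94), a ratio of 1.30. Hist2h2bb (H2bc18) had 44.1 (7.74) and 37.3 (8.87), a ratio of 1.41. The SoNar-high level was set against the higher of the gene's own SoNar-low signal and the lowest signal well above background there. Only the value of Hist2h2ab is thus a lower bound, with scanner error left aside, and the others are plain ratios of dim signals. All 4 values lay under 2-fold, a size that 12.5% of the 1621 named genes above background on the SoNar-high array alone reached.

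A further 15 genes were not well above background on either array. They included the linker genes Hist1h1b (H1f5; 29.3 in SoNar-high and 32.7 in SoNar-low), Hist1h1d (H1f3), H1f0 (6.51 and 25.4) and H1fx (H1f10). The germ-line members Hist1h1t (H1f6), Hist1h2aa (H2ac1), H2afb1 (H2ab1) and H2al2a of the testis and H1foo (H1f8) of the oocyte were all in this group. The other 6 were Hist1h2ac (H2ac6), Hist1h2ae (H2ac8), Hist1h2be (H2bc6), Hist2h2be (H2bc21), Hist1h3a (H3c1) and Hist1h4h (H4c8). The probes of 2 further genes named for the testis did give signal on both arrays. Hist1h2ba (H2bc1), a testis H2B, had 729 in SoNar-high and 592 in SoNar-low, a difference of 0.55. H1fnt (H1f7), a spermatid linker histone, had 72.9 and 62.5, a difference of 0.47. Which transcripts bound these 2 probes was not tested.

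Few histone genes passed 2-fold between the 2 arrays, and few of all measured genes did. Of the 43 measured histone genes, 41 lay within 2-fold and 38 within 1.5-fold. None was at least 2-fold higher in SoNar-high, a size that 5.28% of all 10223 measured genes reached, and 2 were at least 2-fold lower, against 4.44% of all. Scaled to the 75th percentile of detected probes only, which moved the median of all genes from -0.08 to 0.07, all genes split into 782 higher and 247 lower in place of 540 and 454, and the histone genes into 0 and 1. Their differences ran from -1.16 to 0.80 with a median of -0.07 and an SD of 0.44. Over all measured genes the median was -0.08 and the SD 0.63. A difference above 0 was found for 19 of the 43, against 44.2% of all measured genes. The 33 cluster genes had a median of -0.02, with 15 above 0, and the 10 variant genes a median of -0.23, with 4 above 0. The count of cluster genes above 0 depended on the scaling, and was 23 of 33 with the 75th percentile of detected probes and 21 after loess. In 12 of the 43 genes the difference was beyond 2 scanner errors, 6 in each direction, and in 10 it was smaller than the spread between spots. Hist1h2ak (H2ac15), among the 6 higher, had another probe of the opposite sign. The counts by 1.5-fold, scanner error and spot spread were made for the histone genes only.

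**Figure D2:**
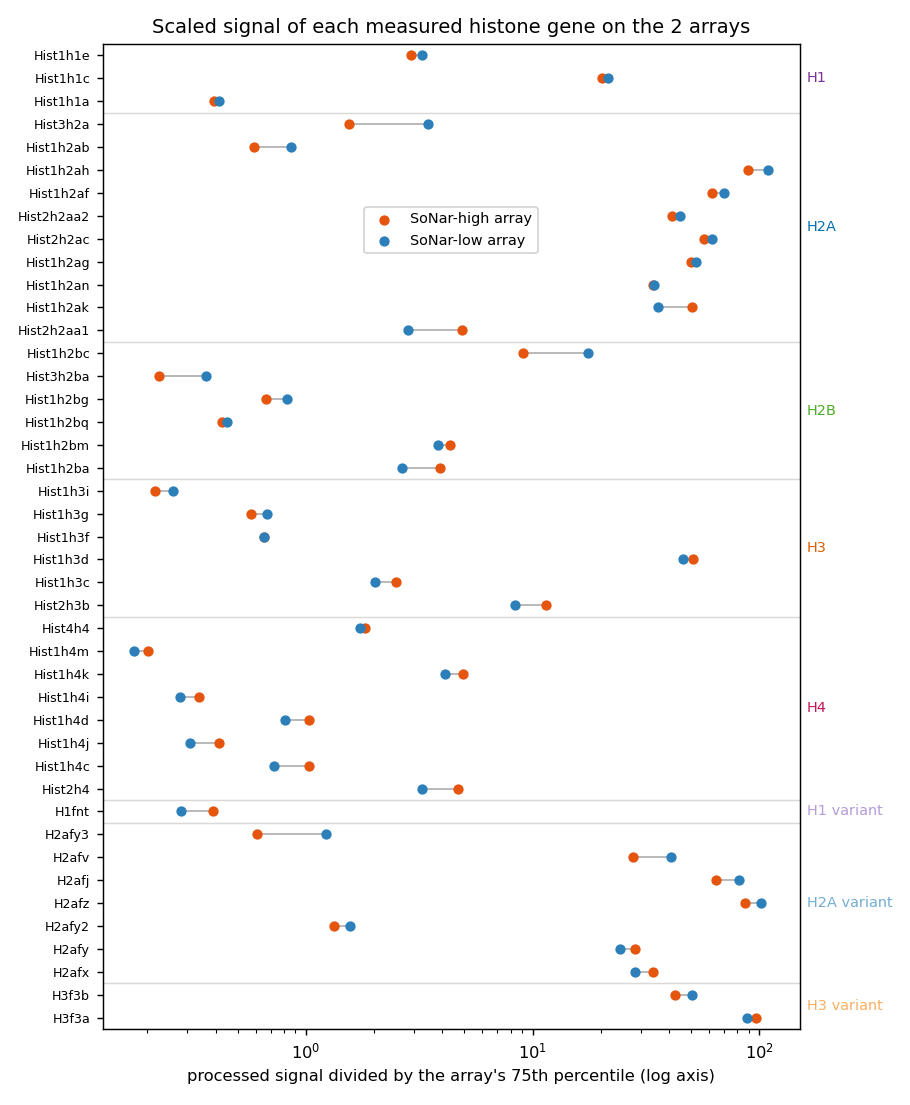
Scaled signal of the 43 measured histone genes, as the processed signal divided by the array's 75th percentile (x axis, logarithmic), with 1 point per array and genes grouped by class. The points of a gene lie close together for most genes, and the widest gaps are those of Hist3h2a, H2afy3 and Hist1h2bc, all lower in SoNar-high.

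Both genes that passed 2-fold were lower in SoNar-high, and another lay just short of it. Hist3h2a encodes an H2A outside the main cluster, on chromosome 11, and its signal was 290 in SoNar-high and 770 in SoNar-low. The difference was -1.16 (scanner error 0.21), or 2.23-fold lower, and stayed between -1.33 and -0.98 over 9 other ways of processing, falling short of 2-fold only when a loess trend was removed. H2afy3 (Macroh2a3), annotated as a transcribed pseudogene, had 114 and 274, a difference of -1.02 or 2.02-fold lower. It passed 2-fold in 5 of 9 alternatives, with a range of -1.05 to -0.54. The filters on dim probes and the median over probes left its value unchanged, because it has 1 probe. Of the settings that could change it, only quantile normalization (-1.05) and the deposited value table (-1.05) passed 2-fold. Counts over alternatives for other genes with 1 probe likewise include settings that left their value unchanged. Hist1h2bc (H2bc4), an H2B of the main cluster, had 1694 and 3911, a difference of -0.95 or 1.94-fold lower, and passed 2-fold in none of 9. The partner of Hist3h2a in the same small cluster, Hist3h2ba, was dim, with 41.9 and 80.9, and differed by -0.69 (scanner error 0.33). The 2 measured Hist3 genes were thus both lower in SoNar-high, while the 5 measured Hist2 genes on chromosome 3 were split, 3 above and 2 below 0, from -0.12 to 0.80. The 25 measured Hist1 genes on chromosome 13 had a median of -0.02.

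Linker histones of the cluster hardly differed. Hist1h1c (H1f2), one of the somatic H1 genes, had a signal of 3760 in SoNar-high and 4759 in SoNar-low, a difference of -0.09. Hist1h1e had 540 and 724, a difference of -0.17. Hist1h1a (H1f1) had 73.1 and 92.2, a difference of -0.08. All 3 lay within 1 scanner error of 0, and the sign of each turned under at least 1 alternative.

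The H2A genes of the clusters had the widest range of any class, -1.16 to 0.80, around a median of -0.11, with 2 of 10 above 0. By the median over the probes of a gene, 1 of 10 was above 0, because Hist1h2ak then turned to -0.20. Apart from Hist3h2a, the largest difference was that of Hist2h2aa1 (H2ac18), with 912 in SoNar-high and 624 in SoNar-low, a difference of 0.80. It was positive in 9 of 9 alternatives, from 0.59 to 1.00. Hist2h2aa2 (H2ac19), its neighbour in the Hist2 cluster, had 7687 and 9925 and differed by -0.12. These copies are close in sequence, so how far the 2 probes read separate genes is uncertain. Hist1h2ah (H2ac12) had 16692 and 24256, a difference of -0.29. Hist1h2af (H2ac10) had 11587 and 15510, a difference of -0.17, and both were negative in 9 of 9 alternatives. Hist1h2ag (H2ac11) had 9359 and 11671, a difference of -0.07. The differences of Hist2h2ac (H2ac20) at -0.11 and Hist1h2an (H2ac22) at -0.02 were likewise within the spread between spots. Hist1h2ab (H2ac4) was dim, with 110 and 191, and differed by -0.55.

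An H2A gene gave opposite values from its probes. The brighter probe of Hist1h2ak (H2ac15) read 9372 in SoNar-high and 7960 in SoNar-low, a difference of 0.49. The dimmer read 646 and 1423, a difference of -0.89. The gap of 1.37 between them was the largest within any measured histone gene, and no direction can be given for that gene. In all, 10 histone genes had more than 1 measured probe, with a median gap of 0.36, and in 4 the probes differed in sign. The others with both signs were Hist1h4i (0.27 and -0.37), H2afj (-0.35 and 0.29) and H3f3a (0.13 and -0.15).

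The H2B genes had a median of -0.19, with 2 of 6 above 0. Beside Hist1h2bc, Hist3h2ba and Hist1h2ba above, Hist1h2bm (H2bc14) had 804 in SoNar-high and 849 in SoNar-low, a difference of 0.17. Hist1h2bg (H2bc8) had 124 and 183, a difference of -0.31. Hist1h2bq (H2bc23) had 79.5 and 99.4, a difference of -0.07. Only Hist1h2bc had a signal above 1000 on both arrays. Hist1h2ba and Hist1h2bm also lay above the signal used to scale each array, 186.5 in SoNar-high and 222.2 in SoNar-low. Hist1h2bg, Hist1h2bq and Hist3h2ba lay below it on both arrays, so the class rests in part on dim probes.

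The H3 cluster genes were split evenly, 3 above and 3 below 0, with a median of 0.07. Hist2h3b had 2135 in SoNar-high and 1852 in SoNar-low, a difference of 0.46, beyond 2 scanner errors and positive in 9 of 9 alternatives. Hist1h3c (H3c3) had 464 and 450, a difference of 0.30. Hist1h3d (H3c4) had 9507 and 10218, a difference of 0.15. The lower 3 were dim. Hist1h3f (H3c7) had 121 and 145, a difference of -0.003, Hist1h3g (H3c8) 107 and 150, a difference of -0.24, and Hist1h3i (H3c11) 40.2 and 57.9, a difference of -0.27.

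All 8 measured H4 genes had a difference above 0, which held for 44.2% of all measured genes. The genes of this class encode the same protein, and the differences were small, from 0.06 to 0.53 with a median of 0.31. Hist2h4 (H4c14) had 873 in SoNar-high and 722 in SoNar-low, a difference of 0.53 by its brighter probe and 0.14 by the other. Hist1h4c had 192 and 161, a difference of 0.51. Hist1h4j (H4c11) had 77.4 and 68.8, a difference of 0.42. Hist2h4 and Hist1h4c lay beyond 2 scanner errors and the other 6 did not. Hist1h4d (H4c4) had 193 and 180, a difference of 0.35. Hist1h4k (H4c12) had 920 and 916, a difference of 0.26, with 0.22 by its other probe. Hist1h4i (H4c9) had 62.8 and 62.2, a difference of 0.27 by its brighter probe and -0.37 by the other. Hist1h4m (H4c17), near the limit of detection, had 37.5 and 38.9, a difference of 0.20. Hist4h4 (H4f16), the lone gene of its cluster on chromosome 6, had 339 and 387, a difference of 0.06.

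Single H4 genes, but not the class median, fell below 0 in some settings. The class median lay between 0.29 and 0.46 in 10 settings, and between 0.32 and 0.48 above the median of all genes in the same setting. Hist1h4m turned to -0.18 with quantile normalization and -0.19 in the deposited value table, Hist1h4i to -0.05 with the median over its probes, and Hist4h4 to just under 0 after normexp correction. The medians of the H1, H2A, H2B and H3 clusters and of the H3 variants each took both signs over the same settings. No signal of an H4 gene exceeded 1000 on both arrays, and the 8 probes may share targets, so they are not 8 separate measurements.

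**Figure D3:**
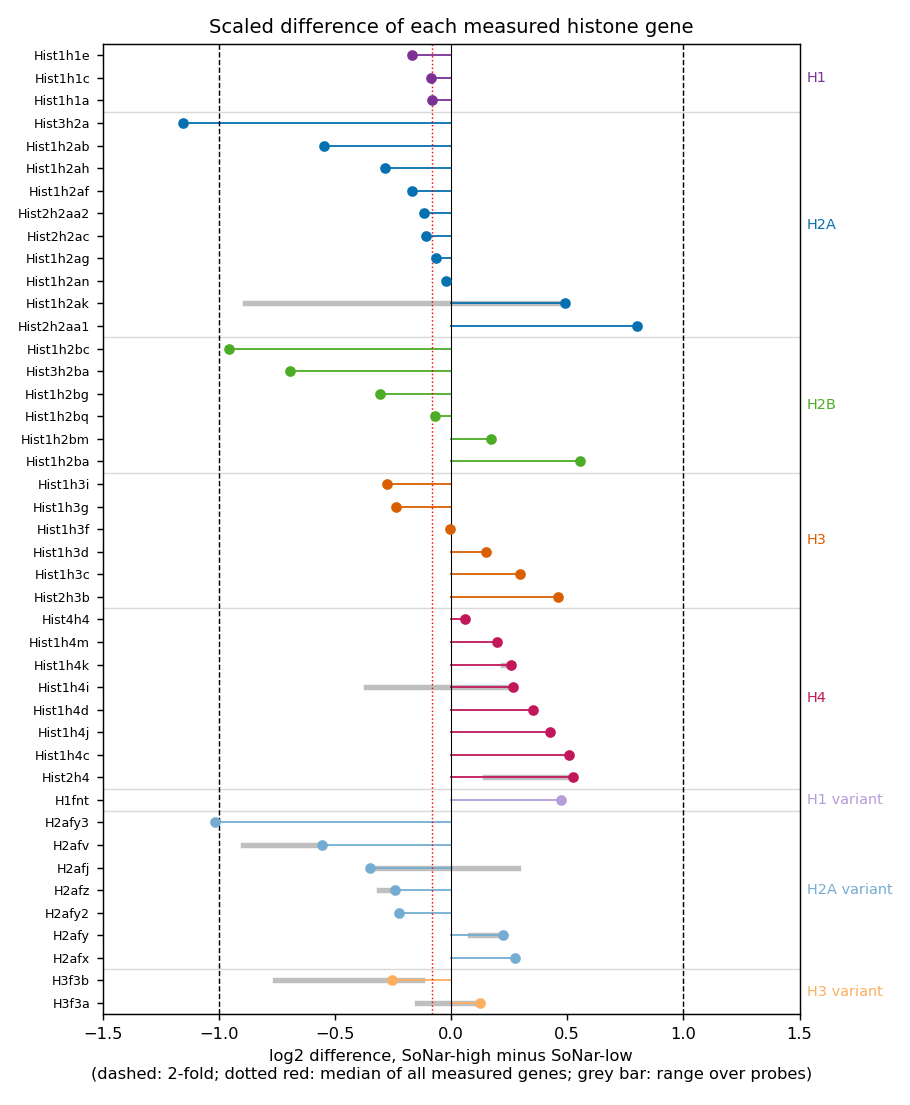
Difference between the arrays (x axis, log2, SoNar-high minus SoNar-low) for each of the 43 measured histone genes by class, as a point joined to 0, with a grey bar for the range over the probes of genes with more than 1, dashed lines at 2-fold and a dotted line at the median of all measured genes. The H4 points all lie right of 0, Hist3h2a and H2afy3 lie left of the line for 2-fold, and the grey bar of Hist1h2ak crosses 0.

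Among the variants, the H2A genes had a median of -0.24, with 2 of 7 above 0, and that median was negative in all 10 settings, from -0.35 to -0.09. H2afz (H2az1) and H2afv encode the H2A.Z variants, which are placed at promoters and enhancers. H2afz had 16096 in SoNar-high and 22669 in SoNar-low, a difference of -0.24, with -0.31 by its other probe. H2afv had 5176 and 9068, a difference of -0.56, with -0.89 by its other probe, which was dim at 39.7 and 88.0. Both H2A.Z genes were thus negative with each of their probes and in 9 of 9 alternatives. The difference of H2afz was under 2 scanner errors (scanner error 0.20). H2afj (H2aj) had 11971 and 18166, a difference of -0.35, but its other probe gave 0.29.

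The H2A variants above 0 were H2afx and H2afy. H2afx (H2ax), phosphorylated at DNA breaks, had 6353 in SoNar-high and 6259 in SoNar-low, a difference of 0.27. H2afy (Macroh2a1), the macroH2A found on the inactive X chromosome and other silent chromatin, had 5284 and 5400, a difference of 0.22, and its 3 probes ran from 0.08 to 0.22. Both were positive in 9 of 9 alternatives and under 2 scanner errors. Its relative H2afy2 (Macroh2a2) had 249 and 347, a difference of -0.22. The genes of H3.3, placed independently of replication, lay on both sides of 0: H3f3a had 18014 and 19681, a difference of 0.13, and H3f3b 7915 and 11248, a difference of -0.25. The 3 probes of H3f3b were all negative, from -0.76 to -0.13.

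**Figure D4:**
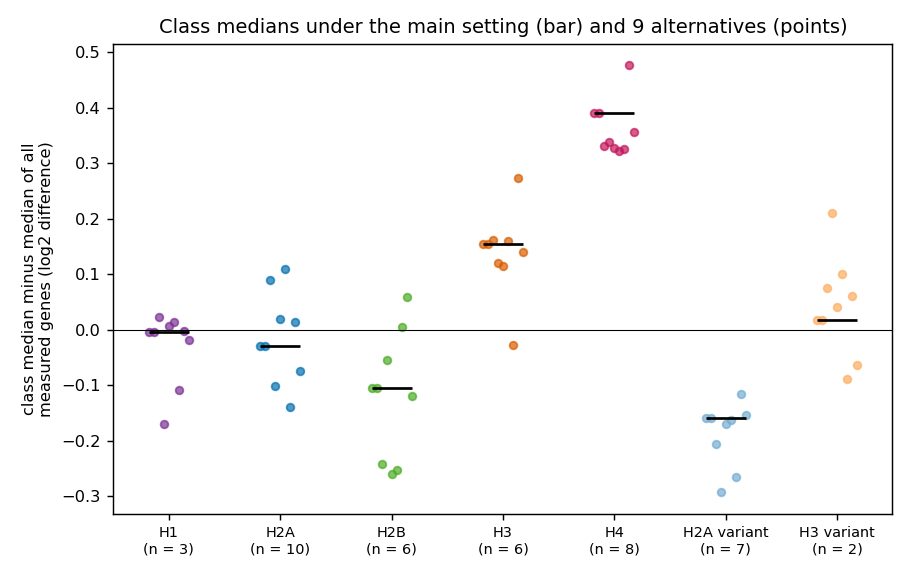
Median difference of each histone class less the median of all measured genes in the same setting (y axis, log2, SoNar-high minus SoNar-low), with a bar for the setting reported and a point for each of 9 alternatives. The class with 1 measured gene is left out. The H4 points all lie above 0 and the H2A variant points below it, while the points of each other class lie on both sides.

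Genes that act in the transcription and processing of histone mRNA had a negative median. Of 33 listed, 30 were measured, with a median of -0.26 beside -0.08 for all genes. At least 2-fold lower were 3 of the 30, against 4.44% of all measured genes, and none was higher, against 5.28%. Slbp, which binds the stem-loop, had a signal of 608 in SoNar-high and 1641 in SoNar-low, a difference of -1.18. It passed 2-fold in 7 of 9 alternatives, with -0.58 as the median over its probes. Zcchc11, a uridylyl transferase that tails histone mRNA for decay, had 162 and 545, a difference of -1.49, and passed 2-fold in 9 of 9. Nfya, a subunit of NF-Y, was the other gene past 2-fold at -1.03, and passed it in 6 of 9 alternatives, with a range of -1.06 to -0.72. The largest positive differences were those of Cpsf1, a cleavage factor subunit, at 0.80 and Cdk2, a kinase of S phase, at 0.53. Zcchc6, the brightest of the list, was at 0.36.

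Histone chaperones and exchange factors had a median of -0.33, with 28 of 41 measured genes below 0. At least 2-fold lower were 2 of the 41, a share near the 4.44% of all measured genes, and none was higher, against 5.28% of all. Npm1, nucleophosmin, had 7689 in SoNar-high and 19967 in SoNar-low, a difference of -1.12, and passed 2-fold in 5 of 9 alternatives, with -0.73 as the median over its probes. Ep400, a subunit of an H2A.Z exchange complex, had 122 and 402, a difference of -1.47, and passed in 9 of 9. Cabin1 at 0.68 and the importin gene Ipo4 at 0.67 lay highest. Of 37 measured S phase genes, Slbp again was the only one at least 2-fold lower, none was higher, 27 lay below 0 and the median was -0.34. Cdc6, which loads the helicase, was at -0.91, but at -0.40 after normexp correction and -0.38 as the median over its probes. Pola2 and Mcm2, of the polymerase and the helicase, were at 0.79 and 0.57, and the brightest, Mcm6, at -0.11. The medians of these 3 lists were negative in 9 of 9 alternatives, and none reached 2-fold.

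Marker genes of several blood and liver cell types differed more between the arrays than the histone genes did. The marker lists were chosen with earlier results of these data known, so this contrast only describes the lists chosen. Among all measured genes, 5.28% were at least 2-fold higher in SoNar-high and 4.44% at least 2-fold lower. Of 16 erythroid markers, all were measured and 8 were at least 2-fold higher in SoNar-high, with a median of 1.00 and a summed signal, in units of the array's 75th percentile, of 713 against 461. Macrophage markers (8 of 9 measured at least 2-fold higher, 102 against 38.7), hepatoblast markers (6 of 8, 79.3 against 26.5) and endothelial markers (4 of 6, 20.6 against 4.89) were also higher in SoNar-high, as were 2 of 10 neutrophil markers (1171 against 798). Below 0 lay Krt18 of the hepatoblast list at -0.47 and Ngp of the neutrophil list at -0.19. Pecam1 of the endothelial list was at 0.01. B lymphoid markers (7 of 10 at least 2-fold lower, 30.8 against 88.4) were lower in SoNar-high. Of the 6 measured T and natural killer markers (summed signal 10.7 against 34.0), 4 were at least 2-fold lower, while Cd3e at 0.87 and Nkg7 at 0.22 lay above 0. Of the 9 measured stem and progenitor markers (49.5 against 89.1), 3 were at least 2-fold lower and 5 within 2-fold, and Ly6a was at least 2-fold higher at 1.48. Outside the endothelial, hepatoblast and stem lists, every marker with a probe was above background on at least 1 array. Their part in the histone differences was not tested.

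**Figure D5:**
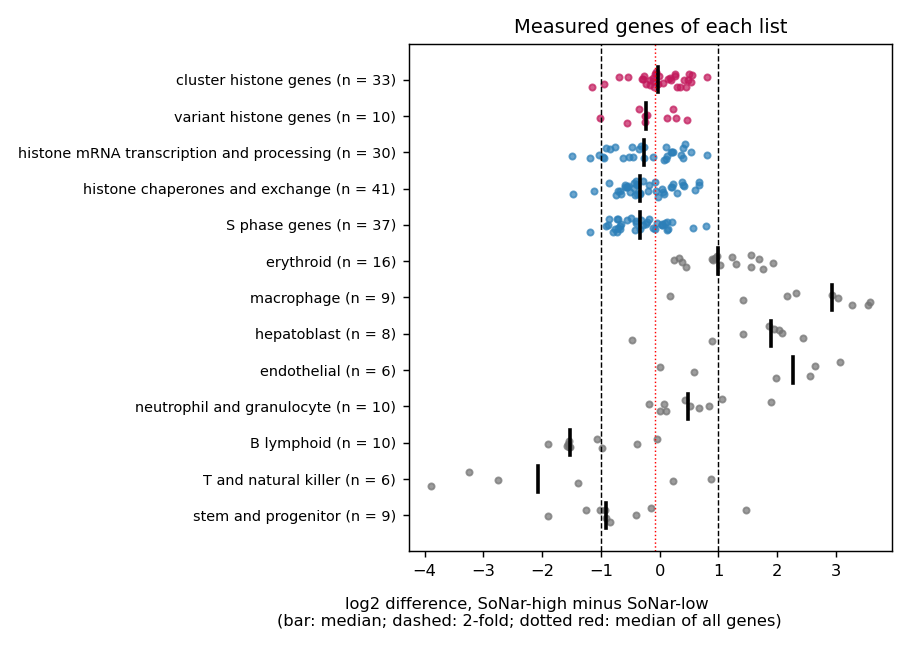
Difference between the arrays (x axis, log2, SoNar-high minus SoNar-low) of each measured gene of the histone sets, the 3 lists of related genes and the 8 marker lists, with the median of each list as a bar. The histone genes lie close to the median of all genes, and the marker lists spread to both sides.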

How the data were processed

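The deposited spot intensities were Agilent Feature Extraction output, 1 array per group, with the processed signal already background-subtracted, per the file headers. The submitters' processing notes name version 9.1, and the headers another. The log2 values of the value table deposited by the authors, of unstated normalization, served as an alternative.

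Control spots and outlier spots (225 and 135) were left out. Each array's 75th percentile over 43020 spots was subtracted from log2 of the processed signal. Of 39429 probes, 27234 were named by RefSeq accession (GRCm38.p6). A probe was measured when well above background on most of its spots and unsaturated on both arrays, and a gene took its brightest measured probe. With no replicates, no test was run, and 2-fold served as a size threshold. Members and gene lists were chosen with earlier results of these data known. Every measured or singly detected histone gene could be named, with, of the undetected, germ-line members and the brightest (the others were named to complete the list), and, per list of related genes, the 2 largest differences in each direction and the brightest. Nfya, Cd3e, Nkg7, Ly6a, Krt18, Pecam1 and Ngp were named after their values were seen. Code was tested on simulated data. Versions were pandas 2.3.3, R 4.3.3 and limma 3.58.1 (normexp).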

Additional observations from a re-analysis of the deposited data

How the results depend on the processing

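Scaling, background correction, normalization, source of values, filter, probe rule, size threshold, detection rule and list summary were each varied. Counts of histone genes at least 2-fold lower in SoNar-high, 2 as reported, were 1 with the 75th percentile of detected probes, 1 with their median, 1 with normexp, 0 after loess and 0 at 3-fold. The count at least 2-fold higher, 0 as reported, was 1 after loess (Hist2h2aa1) and 2 with no filter on dim probes, where the count lower rose to 3. The median of cluster genes was 0.13 with the 75th percentile of detected probes and 0.14 after loess, and that of variant genes moved to -0.077 with the former. That scaling also changed the split of all measured genes to 782 higher and 247 lower, from 540 and 454, loess to 649 and 347, and the median of detected probes to 639 and 354, while no filter gave 2476 and 659. The median of all genes ran from -0.13 to 0.07. For the 43 measured genes, 245 of 379 alternative values lay within the spread between spots of the reported one and 134 further off. The 245 include values that the filters and the probe rule could not change in genes with 1 probe. No value past 2-fold changed sign. Detection counts were 47 and 43 when every spot had to pass, and 57 and 56 against negative control spots. No paired analysis was possible because each group holds 1 array, and leaving out a replicate was not possible either. Signals near the lowest detected ones limit the dim genes, and with 1 array per group no spread between samples is known.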
